A study of Mus musculus with 12 samples.

Results

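The T cell receptor gene segments described here are the rows of the count table whose symbols name variable, joining or constant segments of the alpha, beta, gamma and delta receptor loci. The symbol pattern matched 11 of 25965 rows. One of the 11, Tradd, encodes an adaptor of TNF receptor signalling and shares only its first letters with the segment names, so it was counted apart. The other 10 were all variable segments of the alpha locus (Trav), on chromosome 14 of mm10. The sum for the alpha locus therefore covers these 10 rows. Segments of the beta, gamma and delta loci and joining and constant segments with a matching symbol were not analysed here.

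The libraries came from intraepithelial lymphocytes (IEL), the lymphocytes that lie between the epithelial cells of the gut. IEL were taken from the small intestine of Rag2-/- hosts 1 week after intravenous transfer of conventional lymph node T cells of Themis WT donors. Hosts given CD4+ T cells gave the sorted TCRβ CD8αα+ cells called CD8αα from CD4 and the TCRβ CD4+ cells called CD4 IEL. Hosts given CD8αβ+ T cells gave the TCRβ CD8αα+ cells called CD8αα from CD8αβ and the TCRβ CD8αβ+ cells called CD8αβ IEL. Each of the 4 groups had 3 libraries, and all were labelled WT. Strain, sex and age of hosts and donors are not given in the labels, nor is it said that replicates are separate animals, so the spread behind each p-value is that of these samples only. In the companion groups it may be technical, while within each CD8αα group the libraries differed in sex-linked transcripts, as given below.

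T cell receptors are built from gene segments that are joined in the thymus by the recombinase made of the RAG1 and RAG2 proteins. In the alpha chain a variable segment is joined to a joining segment and spliced to a constant region, so that reads on a variable segment in a mature T cell come largely from its joined transcripts. Rag2-/- hosts cannot make this joint in their own lymphocytes. The delta locus of the mouse lies within the alpha locus, and segments named with both Trav and dv can be used in either chain. The variable cluster holds repeated blocks, whose copies carry d or n in their names and differ by few bases.

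Reads on these segments were few, 350 in all 12 libraries together against library totals of 5620257 to 11070734 counts. A library with 0 reads of a segment allows up to 3, which is 0.271 to 0.534 CPM (counts scaled to a common library total). Cd4, Cd8a and Cd8b1 followed the labels. Cd8a was at 2433 to 3251 CPM in the 6 libraries labelled CD8αα. Cd8b1 was at 1087 to 1167 in CD8αβ IEL and 2.53 to 20.6 elsewhere, and Cd4 was at 1583 to 1749 in CD4 IEL and 2.56 to 42.3 elsewhere. The TCRβ part of the sort was not checked, as no beta segment was analysed here. Cd3d, Cd3e and Cd247, chains of the CD3 complex that carries the receptor, were lower in the libraries labelled CD8αα, as given below. Of the libraries labelled CD8αα, 4 (replicates 1 and 2 of the CD4 progeny, replicates 1 and 3 of the CD8αβ progeny) had Xist, the transcript that silences an X chromosome, at 373 to 645 CPM, and a sum of 4 Y-linked transcripts of 0.342 to 1.03 CPM. In the other 8 libraries, among them all 6 companions, that sum was 234 to 449 CPM. Sex-linked transcripts were thus not balanced between the sorted types within either progeny. The 6 libraries labelled CD8αα had lower mean levels of 11 of 12 T cell markers in both progenies, with a sum of the 11 of 95.4 to 182 CPM, against 4969 to 6777 in their companions. The remaining marker, Cd3g, was higher, at 1902 to 3780 CPM, against 424 to 1002. Of 12 natural killer (NK) and innate lymphoid markers, 7 had higher and 5 lower means in each progeny. Il2rb, Tyrobp and Fcer1g together were at 5941 to 8933 CPM, against 725 to 1112 in the companions, and the other 9 summed to 805 to 1011 CPM, against 645 to 971. Among these 9, Klrb1c and Zbtb16 had higher means in both progenies, and Tbx21, Gata3 and Eomes lower ones. The direction differed between progenies for Ncr1, Klrb1b, Klrk1 and Klre1. Mean Klrb1c was 205 and 332 CPM in CD8αα from CD4 and from CD8αβ, against 15.8 and 8.03 in their companions. Mean Tbx21, in the same order, was 338 and 413, against 405 and 499. Eomes, which encodes a factor of NK cells, was under 1 CPM in all 6 libraries labelled CD8αα. In bulk samples, fewer cells of a type and less RNA per cell cannot be told apart. The part of the marker levels in the results below was not tested. For the sex-linked transcripts, values with only the CD8αα libraries that had Y-linked transcripts are given beside the results, with 1 such library per origin.

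The 3 segments with the highest level per length over the 12 libraries carry most of what follows, and their ends are shown because the joint to the joining segment is made there. Each line is the last 90 bases of the variable exon, from GENCODE M21 transcripts of GRCm38 (mm10), plus strand, and the capitals mark the last in-frame cysteine codon, the conserved position at which the joint region of the receptor chain begins. The stretches are chr14:53649905-53649994 for Trav15-2-dv6-2, chr14:52851777-52851866 for Trav13d-1 and chr14:53470143-53470232 for Trav8-1.
Trav15-2-dv6-2: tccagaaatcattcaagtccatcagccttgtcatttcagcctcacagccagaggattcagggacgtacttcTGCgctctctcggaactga
Trav13d-1: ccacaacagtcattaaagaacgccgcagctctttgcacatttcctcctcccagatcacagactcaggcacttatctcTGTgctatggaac
Trav8-1: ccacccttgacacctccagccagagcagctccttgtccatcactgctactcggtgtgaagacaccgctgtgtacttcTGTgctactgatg

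The libraries labelled CD8αα and their companion IEL had reads on different segments. In the 6 libraries labelled CD8αα, 114 of 120 segment reads lay on Trav15-2-dv6-2, while 4 of 230 did in the 6 companion libraries. Trav13d-1 held 3 of the 120 reads in libraries labelled CD8αα and 128 of the 230 in the companions. Trav8-1 held 0 of the 120 and 43 of the 230. All 43 reads of Trav8-1 and 105 of the 128 of Trav13d-1 were of CD4 IEL. The other 23 of Trav13d-1 lay in replicate 1 of CD8αβ IEL, and replicates 2 and 3 of that group had 0 of both. These counts over libraries are a description. Libraries of a group are not equally deep, and 104 of the 230 companion reads came from replicate 3 of CD4 IEL.

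**Figure D1:**
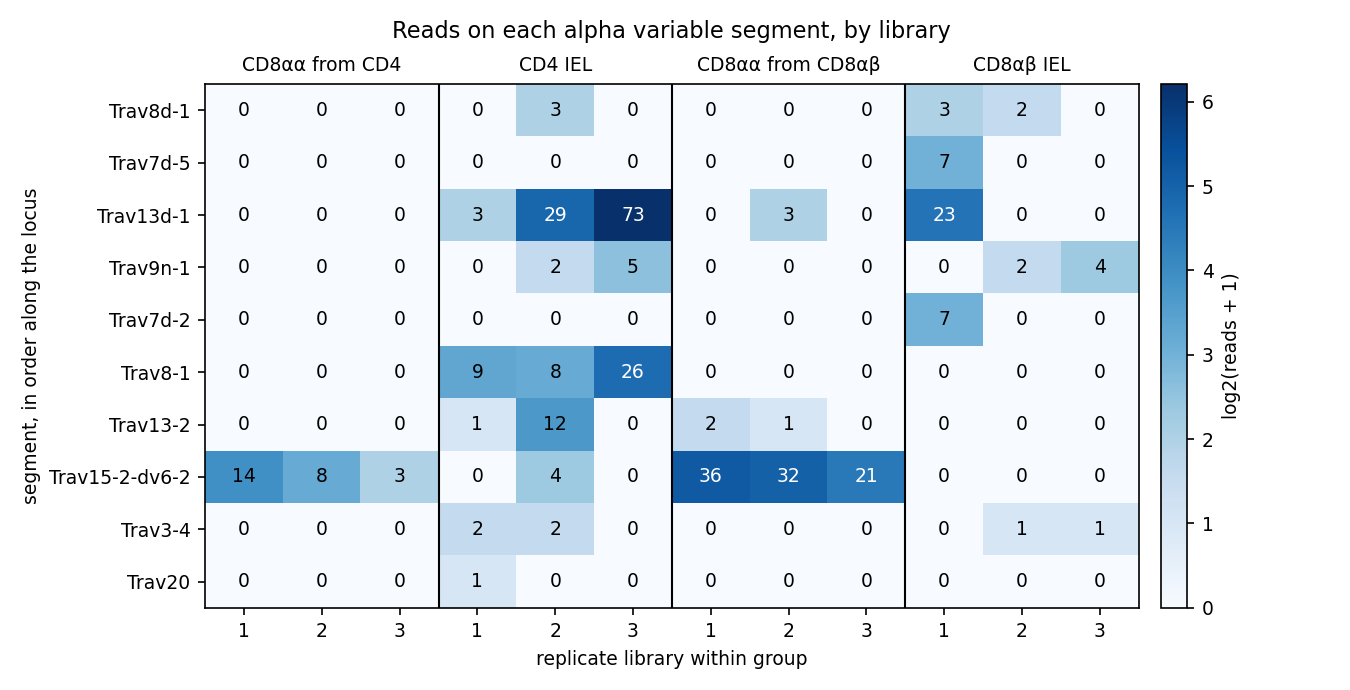
Reads on each of the 10 alpha variable segments (rows, in order along the locus) in each of the 12 libraries (columns, by group and replicate), with the number printed in each cell and the colour on a log2(reads + 1) scale. Trav15-2-dv6-2 has 3 to 36 reads in all 6 libraries labelled CD8αα, and the other rows have 0 to 3 reads there.

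Trav15-2-dv6-2 (ENSMUSG00000076848, chromosome 14 of mm10, 53649387 to 53649993) can be used in alpha or delta chains. It had 14, 8 and 3 reads in replicates 1 to 3 of CD8αα from CD4, against 0, 4 and 0 in CD4 IEL. It had 36, 32 and 21 reads in CD8αα from CD8αβ, against 0, 0 and 0 in CD8αβ IEL. All 6 libraries labelled CD8αα thus had reads on the segment, as did 1 of the 6 companions, and the CD8αα from CD8αβ libraries lay above all 3 of CD8αβ IEL. Mean levels in CPM were 1.26 ± 1.01 for CD8αα from CD4 against 0.174 ± 0.301 for CD4 IEL, and 3.06 ± 0.560 for CD8αα from CD8αβ against 0 for CD8αβ IEL (SD, n = 3 each).

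In the CD8αβ progeny the segment was higher in CD8αα from CD8αβ than in CD8αβ IEL, by at least 23.4-fold when the 0 reads of CD8αβ IEL are set to 3 reads over the group (edgeR quasi-likelihood adjusted p = 0.00459). Trav15-2-dv6-2 passed the filter on low counts through the libraries labelled CD8αα, so a difference was a condition of being tested. With no filter, edgeR adjusted p was 0.00428. The call held without each of the 12 libraries in turn (adjusted p 0.00366 to 0.0159). With only the CD8αα library of each origin that had Y-linked transcripts, adjusted p was 0.120, with 1 library in that group. That library of CD8αα from CD8αβ, replicate 2, had 32 reads, within the 21 to 36 of its group, and the fitted log2 fold change was 7.73, against 7.62 with all libraries (no bound, since CD8αβ IEL had 0 reads). In the CD4 progeny the reads of the groups gave a ratio of 7.0 for CD8αα from CD4 over CD4 IEL (counting interval 2.42 to 27.7), and this missed the threshold (edgeR adjusted p = 0.115). Without CD4 IEL replicate 2, which held all 4 reads of its group, adjusted p was 0.0287. No other library left out gave a call. Leaving out CD8αα from CD4 replicate 1 put adjusted p at 0.357 (log2 fold change 1.91, against 2.75 with all libraries). With only the CD8αα library of each origin that had Y-linked transcripts, the fitted log2 fold change in the CD4 progeny was 1.36.

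Between the libraries labelled CD8αα, all 3 of CD8αα from CD4 (0.468 to 2.39 CPM) lay below all 3 of CD8αα from CD8αβ (2.41 to 3.40 CPM). The gap between the nearest pair was small, and the difference did not pass the test (log2 fold change −1.29 ± 1.01 SE, edgeR adjusted p = 0.547). The change in the CD4 progeny was not shown to differ from that in the CD8αβ progeny (interaction, edgeR adjusted p = 0.264).

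Trav13d-1 (ENSMUSG00000076778, chromosome 14, 52851290 to 52851865), an alpha variable segment, had 0, 0 and 0 reads in CD8αα from CD4, against 3, 29 and 73 in CD4 IEL. The 3 CD4 IEL libraries all lay above the 3 of CD8αα from CD4, with a wide spread among themselves (5.01 ± 5.41 CPM, SD, n = 3). Trav13d-1 passed the filter on low counts through the companion libraries, so a difference was a condition of being tested. The segment was at least 31.2-fold lower in CD8αα from CD4, with 0 reads set to 3 over the group (edgeR adjusted p = 0.0326). This call ended without any 1 of CD8αα from CD4 replicates 1, 2 and 3 (adjusted p 0.0792, 0.0906 and 0.0859) and CD4 IEL replicates 2 and 3 (0.0552 and 0.0999), and with the DESeq2 Wald test (0.0747). With only the CD8αα libraries that had Y-linked transcripts adjusted p was 0.305, and with only the 6 libraries of the comparison the row did not pass the filter on low counts.

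In the CD8αβ progeny Trav13d-1 had 0, 3 and 0 reads in CD8αα from CD8αβ, against 23, 0 and 0 in CD8αβ IEL. All reads of each group lay in 1 library, and the threshold was missed (edgeR adjusted p = 0.248). Between the companions, CD4 IEL against CD8αβ IEL, edgeR adjusted p was 0.314, and 0.0334 without CD8αβ IEL replicate 1, the library that held the 23 reads. No other library left out gave a call, and adjusted p was 0.739 without CD4 IEL replicate 3.

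Trav8-1 (ENSMUSG00000076831, chromosome 14, 53469756 to 53470231) had 9, 8 and 26 reads in CD4 IEL and 0 in every library of the other 3 groups. All 3 CD4 IEL libraries were thus above the other 9. The reads put it at least 12.8-fold lower in CD8αα from CD4 than in CD4 IEL, and at least 13.9-fold higher in CD4 IEL than in CD8αβ IEL. The row did not pass the filter on low counts. With no filter its edgeR adjusted p was 0.0356 for CD8αα from CD4 against CD4 IEL and 0.0335 for CD4 IEL against CD8αβ IEL.

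**Figure D2:**
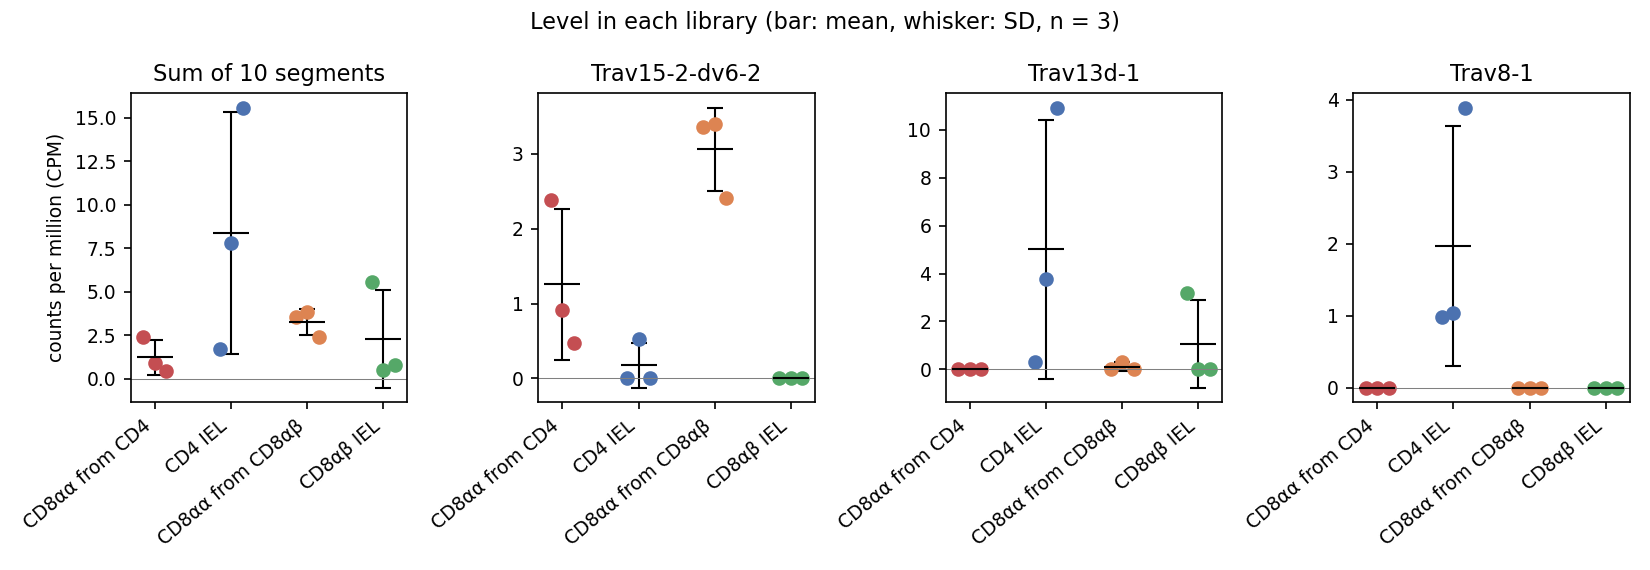
CPM of the sum of the 10 segments and of 3 segments in each library (points), with the group mean (bar) and SD (whisker, n = 3), each panel on its own linear scale. Trav15-2-dv6-2 lies at 2.41 to 3.40 CPM in CD8αα from CD8αβ and at 0 in CD8αβ IEL, and the sum has its highest library, 15.6 CPM, in CD4 IEL.

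The other 7 segments had 1 to 16 reads in all. Trav13-2 (ENSMUSG00000076846), whose variable exon is 89.6% identical to that of Trav13d-1, had 2, 1 and 0 reads in CD8αα from CD8αβ and 0 in CD8αα from CD4, against 1, 12 and 0 in CD4 IEL and 0 in CD8αβ IEL. It was the only one of these 7 with reads in a library labelled CD8αα. Trav9n-1 and Trav20 are annotated as pseudogenes, segments that cannot give a full receptor chain. Trav9n-1 had 0, 2 and 5 reads in CD4 IEL and 0, 2 and 4 in CD8αβ IEL, and Trav20 had 1 read in CD4 IEL replicate 1. Trav7d-5 and Trav7d-2 each had 7 reads, all in CD8αβ IEL replicate 1. Their variable exons differ at 39 aligned bases and share no stretch over 31 bases. Trav8d-1 had 3 reads in 1 CD4 IEL library and 3 and 2 in replicates 1 and 2 of CD8αβ IEL, and Trav3-4 had 1 or 2 reads in 4 companion libraries.

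Per length of the annotated exons, Trav15-2-dv6-2 was the segment with the highest level in CD8αα from CD8αβ, at 8.27 CPM per kb against 0.268 for Trav13d-1. In CD4 IEL the order was the reverse, with Trav13d-1 at 12.7 CPM per kb, Trav8-1 at 6.02 and Trav15-2-dv6-2 at 0.470. In CD8αβ IEL Trav13d-1 was at 2.68 CPM per kb, from 1 library. The levels of Trav8-1 in the 3 CD4 IEL libraries lay within the wider range of those of Trav13d-1.

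Of the 10 segments, 2 passed the filter on low counts, Trav15-2-dv6-2 through the libraries labelled CD8αα and Trav13d-1 through the companion libraries, so that some difference between groups was a condition of being tested. In CD8αα from CD4 against CD4 IEL, 1 of the 2 was called lower and 0 higher, beside 28.5% of 12622 genes called (15.0% higher and 13.5% lower). In CD8αα from CD8αβ against CD8αβ IEL, 1 was called higher and 0 lower, beside 31.2% of genes (16.1% higher and 15.1% lower). Between CD8αα from CD4 and CD8αα from CD8αβ, edgeR called 0 of the 2, with 0 at an unadjusted p under 0.05. This stands beside 4.33% of genes called (1.87% higher and 2.46% lower). DESeq2 did not call Trav13d-1 there (DESeq2 adjusted p = 0.826) and gave no adjusted p for Trav15-2-dv6-2. Between CD4 IEL and CD8αβ IEL, edgeR called 0 of the 2, with 0 at an unadjusted p under 0.05, and DESeq2 called 0. There 29.0% of genes were called (12.9% higher and 16.0% lower). The difference between the CD4 progeny change and the CD8αβ progeny change was called for 0 of the 2, with 1 at an unadjusted p under 0.05 (Trav15-2-dv6-2), beside 2.56% of genes (1.2% higher and 1.35% lower). DESeq2 calls of that difference were not counted.

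Summed over the alpha locus, the 10 segments had 14, 8 and 3 reads in CD8αα from CD4, against 16, 60 and 104 in CD4 IEL. CD8αα from CD4 replicate 1 (2.39 CPM) was above CD4 IEL replicate 1 (1.74 CPM), so the groups overlapped. The sum was lower in the CD8αα cells (log2 fold change −2.74 ± 0.96 SE, edgeR adjusted p = 0.0477). The call ended without any 1 of CD8αα from CD4 replicates 2 and 3 (adjusted p 0.140 and 0.153), CD4 IEL replicates 2 and 3 (0.0825 and 0.196) and CD8αα from CD8αβ replicates 1, 2 and 3 (0.0600, 0.0589 and 0.0605). Without the row of Trav13d-1 the value was −1.42 (adjusted p = 0.201).

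In the CD8αβ progeny the sum was 38, 36 and 21 reads in CD8αα from CD8αβ, against 40, 5 and 5 in CD8αβ IEL. It did not pass the test (log2 fold change 0.51 ± 0.90 SE, edgeR adjusted p = 0.720). Without CD8αβ IEL replicate 1 the value was 2.28 (adjusted p = 0.0964). The sum of CD8αα from CD4 was not called against that of CD8αα from CD8αβ (−1.39 ± 0.95 SE, adjusted p = 0.472), although its 3 libraries (0.468 to 2.39 CPM) lay below the other 3 (2.41 to 3.83 CPM). CD4 IEL against CD8αβ IEL gave 1.86 ± 0.91 SE (edgeR adjusted p = 0.141), and 3.63 (adjusted p = 0.0160) without CD8αβ IEL replicate 1. No other library left out gave a call, and without CD4 IEL replicate 3 the value was 1.06 (adjusted p = 0.460). The 2 CD8αα changes did not pass a test of their difference (−3.25 ± 1.31 SE, edgeR adjusted p = 0.209).

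The number of segments with reads was 1 in each CD8αα from CD4 library and 2, 3 and 1 in CD8αα from CD8αβ, against 5, 7 and 3 in CD4 IEL and 4, 3 and 2 in CD8αβ IEL. Because this number grows with reads, it was compared at 21 reads in the 6 libraries that had at least 20. The expected number was 1.81, 2.52 and 1 segments in CD8αα from CD8αβ, against 5.70 and 2.68 in CD4 IEL replicates 2 and 3 and 3.90 in CD8αβ IEL replicate 1. The 3 libraries labelled CD8αα were all below the 3 companions (mean difference −2.32 segments, exact permutation test, two-sided, p = 0.1, the smallest that 3 against 3 allows). All 3 were of the CD8αβ progeny and 2 of the 3 companions of the CD4 progeny, so in this comparison the sorted type and the cells transferred cannot be told apart.

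Along the chromosome the 10 segments spanned 1085 kb. Of the 120 reads of the libraries labelled CD8αα, 114 lay on Trav15-2-dv6-2, toward the end of this stretch that is nearest the joining segments. Trav13-2 beside it and Trav13d-1, toward the other end, had 3 each. Trav3-4 and Trav20, nearer still to the joining segments, had 0. The closest copy of Trav15-2-dv6-2 lies toward the other end, and how reads with several matches were treated is not given. The position of these reads is therefore not settled. A row outside the symbol pattern, B230359F08Rik, which M21 annotates as a variable gene, lies 147 kb (centre to centre) beyond Trav15-2-dv6-2 and had a like pattern. It had 1, 11 and 0 reads in CD8αα from CD4, against 0, 2 and 0 in CD4 IEL, and 6, 12 and 7 in CD8αα from CD8αβ, against 0 in each CD8αβ IEL library. The row did not pass the filter on low counts and was chosen after its values were seen.

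**Figure D3:**
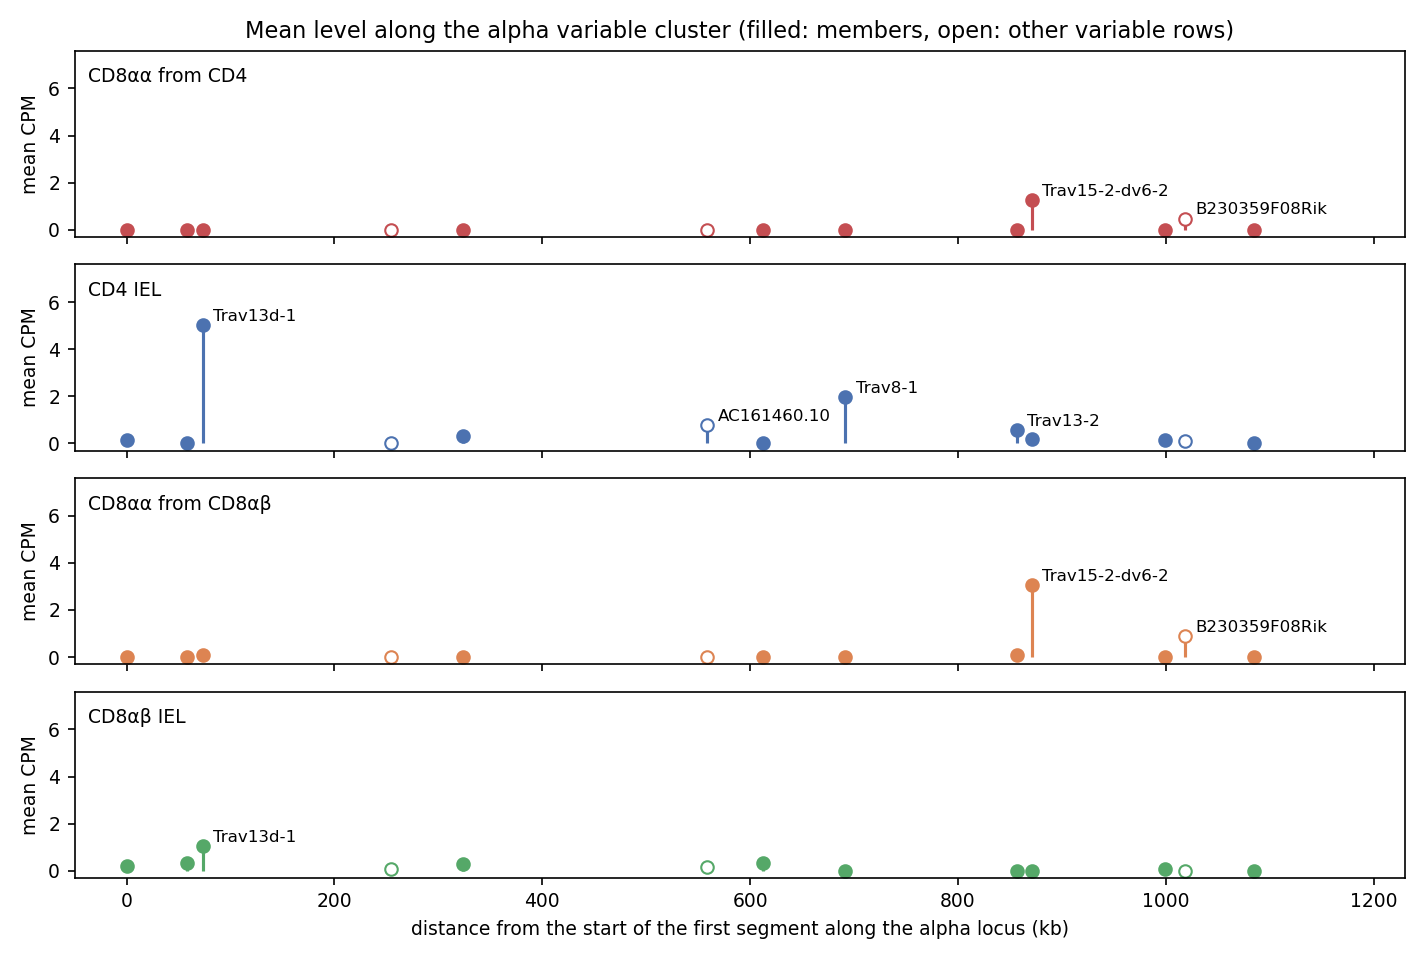
Mean CPM (n = 3) of the 10 segments (filled) and of 3 other annotated variable rows (open) against distance in kb from the start of the first segment, with 1 panel per group on the same linear scale. In both CD8αα groups Trav15-2-dv6-2 has the highest mean, 1.26 and 3.06 CPM, and in CD4 IEL Trav13d-1 has it, at 5.01 CPM.

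The remaining rows that M21 annotates as receptor genes under other symbols were looked at after their values were seen. The row AC161460.10 (Trav13n-3 in M21) had 3, 6 and 8 reads in CD4 IEL, 0, 4 and 0 in CD8αβ IEL and 0 in every library labelled CD8αα. AC163653.2 (Trav13d-3 in M21) had 2 reads in 1 CD8αβ IEL library. Gm17356, on chromosome 13 (19260884 to 19263397), is annotated in M21 as Tcrg-C3, a constant gene of the gamma locus. It had 0, 0 and 0 reads in CD8αα from CD4, against 35, 24 and 31 in CD4 IEL, and was at least 26.8-fold lower (edgeR adjusted p = 0.0212). The row passed the filter on low counts only through companion libraries, so a difference was a condition of being tested. That call was lost without any 1 of the 3 CD8αα from CD4 libraries (adjusted p 0.0520 to 0.0652). It had 1, 0 and 0 reads in CD8αα from CD8αβ, against 1, 156 and 335 in CD8αβ IEL (ratio 623 for CD8αβ IEL over CD8αα from CD8αβ, counting interval 111 to 24654, edgeR adjusted p = 0.00204). Replicate 1 of CD8αβ IEL thus stood apart from the other 2 in this row.

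Near-identical copies limit how far a read can be given to 1 segment, since how reads with several matches were treated is not given in the sources used here. The closest copy of Trav15-2-dv6-2 in M21 is Trav15d-2-dv6d-2, with 97.0% identity over the variable exon, and 104 bases in a row are the same in both. The stretch that holds every differing base is shown for both copies, with the bases that tell them apart in capitals (chr14:53649710-53649910 and chr14:52957113-52957316, plus strand, GRCm38).
Trav15-2-dv6-2: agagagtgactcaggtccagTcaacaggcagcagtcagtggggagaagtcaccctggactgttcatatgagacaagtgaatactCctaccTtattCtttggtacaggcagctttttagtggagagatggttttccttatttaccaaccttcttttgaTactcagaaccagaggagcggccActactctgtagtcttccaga
Trav15d-2-dv6d-2: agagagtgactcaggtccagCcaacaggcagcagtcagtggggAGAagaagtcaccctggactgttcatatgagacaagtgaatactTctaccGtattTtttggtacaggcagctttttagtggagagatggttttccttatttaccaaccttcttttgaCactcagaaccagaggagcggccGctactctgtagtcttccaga

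Of the 10 segments, 9 had another annotated variable gene at 96.9% identity or more, and only Trav20, at 65.2%, had none above 95%. The closest copy of Trav13d-1 is Trav13n-1, with 1 differing base, and that of Trav8-1 is Trav8d-1, with 3. Trav7d-5 has an identical copy, Trav7n-5. A value for any of these 9 rows may therefore include or lack reads of its copies.

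The signalling chains that carry the receptor to the cell surface did not move as 1 group. Of 7 genes of the CD3 complex and its assembly, 6 were tested, and in CD8αα from CD4 against CD4 IEL 4 fell and 2 rose, beside 28.5% of all genes called (median log2 fold change −4.0, against 0.02 over all genes). In CD8αα from CD8αβ against CD8αβ IEL 4 fell and 2 rose as well, beside 31.2% of all genes (median −4.05, against −0.00 over all genes). Cd3d, a CD3 chain, was at 18.0 ± 8.95 CPM in CD8αα from CD4, against 233 ± 15.6 in CD4 IEL, and at 19.8 ± 1.67 in CD8αα from CD8αβ, against 696 ± 74.5 in CD8αβ IEL (SD, n = 3 each). Themis, needed for thymic selection, and the CD3 chains Cd3e and Cd247 were the other genes that fell. Cd3g rose in both, by 2.24 ± 0.12 SE and 1.91 ± 0.11 SE on the log2 scale (edgeR adjusted p = 2.58e-08 and 4.89e-08). Fcer1g, the Fc receptor chain that can stand in for CD247, was the other that rose (5.90 ± 0.54 SE and 5.72 ± 0.53 SE). CD8αα from CD4 was lower than CD8αα from CD8αβ in Cd247 and Cd3g, beside 4.33% of all genes called. CD4 IEL differed from CD8αβ IEL in Themis (higher) and in Cd3d and Cd3g (lower), beside 29.0% of all genes. The call of Cd247 was lost without replicate 2 or 3 of CD8αα from CD4, replicate 2 of CD4 IEL or any replicate of CD8αα from CD8αβ (edgeR adjusted p 0.0543 to 0.101), and that of Themis without replicate 1 of CD4 IEL or replicate 2 of CD8αβ IEL (0.0507 and 0.0562). The fall of Cd3d was the smaller in the CD4 progeny (interaction 1.44 ± 0.34 SE, edgeR adjusted p = 0.0410). This difference passed only narrowly: it stayed a call without CD8αα from CD4 replicate 1 and without CD8αβ IEL replicate 3, and leaving out any 1 of the other 10 libraries put its adjusted p at 0.0513 to 0.108.

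**Figure D4:**
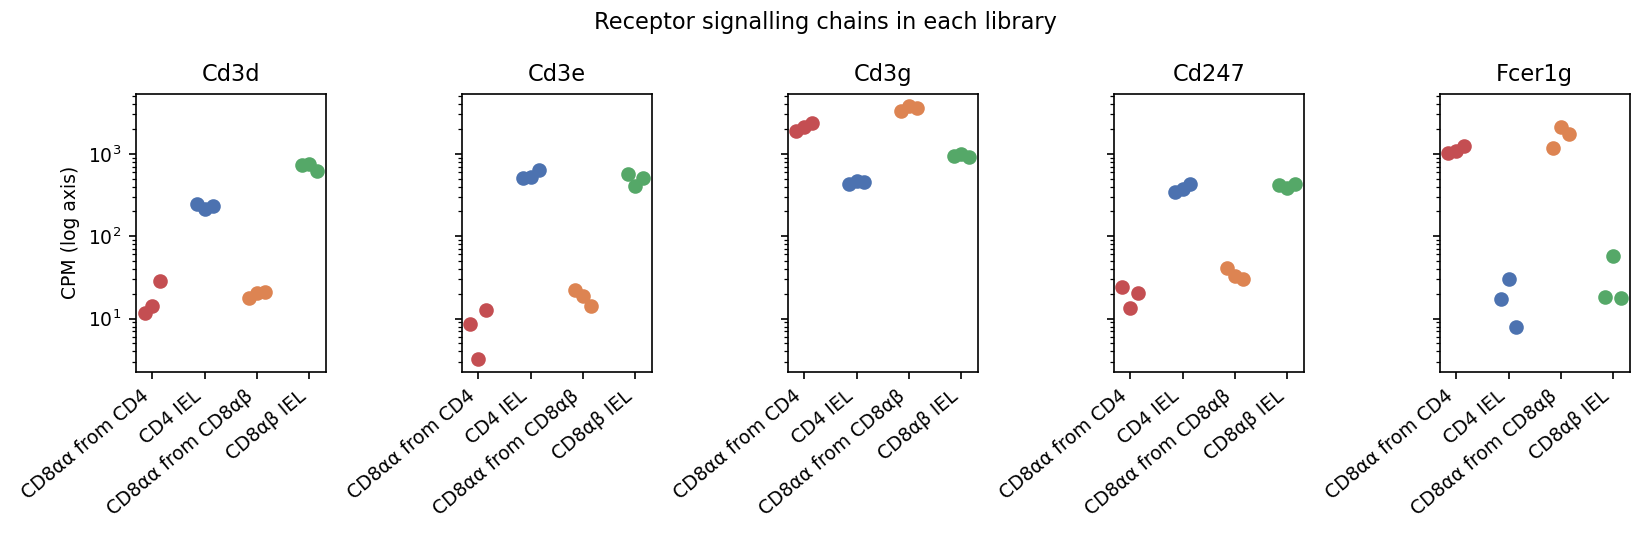
CPM on a log axis of 4 CD3 complex genes and Fcer1g in each library (points), by group. Cd3d, Cd3e and Cd247 are lower and Cd3g and Fcer1g higher in all 6 libraries labelled CD8αα than in their companions.

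Of 12 genes of recombination and of factors that bind receptor locus enhancers, 11 were tested. In CD8αα from CD4 against CD4 IEL 8 fell and 1 rose, beside 28.5% of all genes called (median log2 fold change −0.86, against 0.02 over all genes). Tcf7 and Lef1, a pair of related factors of the alpha enhancer, fell by 6.64 ± 0.56 SE and by 4.52 ± 0.44 SE on the log2 scale (edgeR adjusted p = 1.41e-06 and 4.64e-06), and Bcl11b, a T lineage factor, fell by 4.75 ± 0.32 SE (2.12e-07). The gene that rose was Rag1, at a mean of 2.87 ± 1.96 CPM in CD8αα from CD4, against 0.0998 ± 0.173 in CD4 IEL (SD, n = 3 each), with edgeR adjusted p = 0.0335. It passed the filter on low counts only through CD8αα from CD4, so a difference was a condition of being tested, and with no filter it was not called (adjusted p = 0.0561). The call was also lost without any 1 of the 3 CD8αα from CD4 libraries or replicate 1 or 2 of CD4 IEL (0.0564 to 0.124). In CD8αα from CD8αβ against CD8αβ IEL Tcf7, Lef1, Bcl11b and Tcf3 fell and 0 rose (median −0.48, against −0.00 over all genes). These are 4 of 11, near the 31.2% of all genes called there. Between CD8αα from CD4 and CD8αα from CD8αβ, edgeR called 0 of the 11, with 5 at an unadjusted p under 0.05, beside 4.33% of all genes called, and DESeq2 called 3. In CD4 IEL against CD8αβ IEL 7 were higher and 0 lower, beside 29.0% of all genes called (12.9% higher), among them Runx1 (2.22 ± 0.27 SE, edgeR adjusted p = 0.000109). Runx1 fell in CD8αα from CD4 and was not called in CD8αα from CD8αβ (interaction −1.83 ± 0.36 SE, adjusted p = 0.0188). The interaction was not called without replicate 2 or 3 of CD8αα from CD4 or replicate 3 of CD8αα from CD8αβ (adjusted p 0.0530 to 0.0626).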

How the data were processed

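The authors deposited a table of whole-number read counts per gene, with no normalization. The submitters' processing notes name HISAT2 2.1.0 and the build mm10. Which program and annotation counted the reads, and how strand and multiple matches were handled, is not given in the sources used here. Groups follow the sample titles.

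The members and lists were chosen with earlier results of these data known. Rows sharing a symbol were represented by the one with the most reads (66 rows left out). Genes were kept by filterByExpr (minimum count 10, minimum total 15), scaled by TMM and tested with edgeR 4.0.16 (R 4.3.3), quasi-likelihood (two-sided tests), and p-values were adjusted by Benjamini-Hochberg across the genes tested. They were called at adjusted p under 0.05. All 12 libraries shared 1 model with 4 group means. For the locus sum, the 10 rows were replaced by their sum and the fit repeated. Libraries of a group differed by a chi-square per gene of 11.4 to 60.2, so each counted as 1 replicate. Same-numbered libraries deviated together in the CD8αβ progeny (correlations 0.219, 0.350 and 0.112), as a hint from the data. A fit with the number as a block within that progeny was therefore added after the data were seen. The libraries so matched differed in sex-linked transcripts for replicates 1 and 3. Intervals are 95% and, like the floor of 3 reads, cover counting error only. Levels are CPM over TMM-scaled totals, and the floors in CPM use unscaled totals. Alternatives included DESeq2 1.42.0.

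Genes named were the 4 variable segments with the highest mean CPM, called segments and genes of the 2 lists. Other segments are given to account for every member, and other names were chosen after their values were seen. Exon lengths and sequences come from GENCODE M21. The identifier of Trav7d-5 was matched by symbol and position, and that of Trav7d-2 belongs to Trav7-2 in M21. The planned shares of variable reads and the sums of other loci were not run, because all 10 rows were alpha variable segments. Markers of gamma delta T cells, epithelium and myeloid cells were summed too, and 1 further marker list is not reported here. Their sums, CD8αα libraries against companions, were 4.61 to 17.5 CPM against 13.5 to 237 for gamma delta T cells, 446 to 725 against 105 to 423 for epithelium and 341 to 431 against 79.2 to 222 for myeloid cells. Members of a list went both ways: 8 of 8 epithelial means were higher in CD8αα from CD4 but 4 of 8 in CD8αα from CD8αβ (Krt8, Krt20, Vil1 and Fabp2 were lower), and 2 of 5 myeloid means, Itgam and Cst3, were higher in both while Lyz2, Csf1r and Cd68 were lower.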

Additional observations from a re-analysis of the deposited data

Results flagged for a closer look

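The change of Cd3d in CD8αα from CD4 against CD4 IEL differed from its change in CD8αα from CD8αβ against CD8αβ IEL, with an interaction of 1.44 on the log2 scale (edgeR adjusted p = 0.0410). For Runx1 the same interaction was −1.83 (edgeR adjusted p = 0.0188). With only the CD8αα libraries that had Y-linked transcripts, 1 per origin, they were 2.05 and −1.54. CD8αα from CD4 and CD8αα from CD8αβ were not called different in Cd3d (log2 fold change −0.14, edgeR adjusted p = 0.827) or Runx1 (0.39, 0.453). CD4 IEL was lower than CD8αβ IEL in Cd3d (−1.58, 0.000377) and higher in Runx1 (2.22, 0.000109).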

How the results depend on the processing

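The call of Trav15-2-dv6-2 in the CD8αβ progeny passed under every alternative run except the libraries with Y-linked transcripts, which left 1 library in the CD8αα group and a fitted log2 fold change of 7.73, against 7.62. With few reads per segment, the depth limits the results on the other segments.

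For CD8αα from CD4 against CD4 IEL, the number of segments called was 0 with DESeq2, with the replicate block, with only the CD8αα libraries that had Y-linked transcripts and with only the 6 libraries of the comparison, in which 0 segments passed the filter. It was 2 with no filter (Trav13d-1 and Trav8-1), and 0 to 1 when each library was left out. For CD8αα from CD8αβ against CD8αβ IEL it was 0 with only the libraries that had Y-linked transcripts and 1 to 1 without each library. For CD4 IEL against CD8αβ IEL it was 1 with no filter and 1 with only the libraries that had Y-linked transcripts (Trav8-1 in both), and 0 to 1 without each library.

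The alpha locus sum in CD8αα from CD4 against CD4 IEL was −4.11 (adjusted p = 0.229) with only the libraries that had Y-linked transcripts and −1.42 (0.201) without Trav13d-1. Without each library it ran from −3.55 to −1.93. In CD4 IEL against CD8αβ IEL it ran from 1.06 to 3.63. Trav13d-1 in CD8αα from CD8αβ against CD8αβ IEL, not called, ran from −6.08 to 2.96, the highest without CD8αβ IEL replicate 1, which held all 23 reads of its group. Other causes were not tested. No locus sum reversed.

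Same-numbered libraries of different groups had correlations of deviations of −0.07 to 0.35, over 0.1 in 4 of 18 pairs. All 3 pairs of CD8αα from CD8αβ with CD8αβ IEL were over 0.1, and the numbers were not taken as pairs elsewhere. With the replicate block within that progeny alone, Trav15-2-dv6-2 kept its call (adjusted p = 0.00787), the locus sum was 1.12 (0.405), the recombination and enhancer list had 6 calls against 4, and no other call named for that comparison changed. With the replicate block over all groups the locus sum was −3.08 in CD8αα from CD4 against CD4 IEL, 0.85 in CD8αα from CD8αβ against CD8αβ IEL, −1.55 between the CD8αα groups and 2.38 between CD4 IEL and CD8αβ IEL, and its calls did not change. Trav13d-1 was at adjusted p 0.0571 under the block. The difference in segment number ran from −3.02 to −1.51 without each library, and no library labelled CD8αα had 50 variable reads, so that minimum was not run. Counting only variable rows changes nothing, since all 10 are variable.

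For the 2 gene lists and the other genes named, the same alternatives were added after the data were seen. Between CD8αα from CD4 and CD8αα from CD8αβ, the CD3 complex calls were 1 with library totals alone and with only the 6 libraries of the comparison, 0 with only the libraries that had Y-linked transcripts and 1 to 2 without each library. The libraries with Y-linked transcripts set 1 library against 1 there, and 1 of 13393 genes was called, against 547 of 12622 with all libraries. The recombination and enhancer list, with 0 calls there, had 2 with library totals alone, 3 with DESeq2, 1 with no filter, 2 with the replicate block, 3 with only the 6 libraries and 0 to 3 without each library. In CD8αα from CD4 against CD4 IEL it had 5 with only the libraries that had Y-linked transcripts.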

Other observations

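The genes that flank the alpha locus on the constant side, Dad1 and Abhd4, are given as neighbours and were looked at after their values were seen. Abhd4 was higher in CD8αα from CD4 than in CD4 IEL (log2 fold change 2.21 ± 0.22 SE, edgeR adjusted p = 7.19e-06) and in CD8αα from CD8αβ than in CD8αβ IEL (3.19 ± 0.24 SE, 3.53e-07). Dad1, next to the alpha enhancer, was higher in CD8αα from CD4 than in CD4 IEL (0.78 ± 0.23 SE, 0.0217; 0.0678 to 0.0970 without replicate 3 of CD8αα from CD4 or replicate 2 or 3 of CD4 IEL) and did not pass in CD8αα from CD8αβ against CD8αβ IEL (0.20 ± 0.23 SE, 0.572). Tradd, which only shares letters with the segment names, passed in 0 of the 4 comparisons by edgeR, with 2 at an unadjusted p under 0.05 (adjusted p 0.0922 in CD8αα from CD4 against CD4 IEL and 0.106 in CD4 IEL against CD8αβ IEL).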
